A study of Mus musculus with 5 samples.

Results

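The 7 miRNAs described here, mmu-miR-191-5p, mmu-miR-425-5p, mmu-miR-103-3p, mmu-miR-107-3p, mmu-miR-151-5p, mmu-miR-151-3p and mmu-miR-186-5p (the species prefix is left out below), are broadly expressed and are often used as references that other miRNAs are measured against. They were chosen by name from the 1966 miRNAs of the count table, with earlier results of these data known. All 7 had counts, as did 517 miRNAs of the whole table, and all 7 were among the 327 miRNAs that passed the filter on low counts. The series measured miRNAs in extracellular vesicles (EVs), the membrane particles that cells release, from mesenchymal stem cells of C57BL/6-GFP transgenic mice. It set 3 libraries of freeze-dried EVs against 2 libraries of EVs that had not been dried (not freeze-dried), to compare miRNA content with and without drying. Per the labels' protocols, the cells of both groups spent 48 h in reduced-serum medium, and small EVs were pelleted at 100000 g. The EVs for drying were diluted in buffer with 25 mM trehalose, dried overnight from a frozen state at -80 °C, and hydrated for 1 h. The effects of drying, trehalose, freezing and hydration cannot be told apart in this design. The protocols list several storage buffers and temperatures and do not say which one each library had, nor whether replicates came from separate cultures. The p-values below therefore measure only the spread between these libraries, which may be technical.

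Total miRNA counts were 192450 to 2914305 in freeze-dried libraries and 131507 and 912080 in not freeze-dried libraries. Freeze-dried replicate 3 and not freeze-dried replicate 2 were shallow (under 500000 counts) and the other 3 were deep, so each group held a shallow library. Mesenchymal miRNAs, a list of 8 with all 8 counted, together took 15.3 to 17.5% of counts in freeze-dried libraries and 21.7% in both not freeze-dried ones. This share is a sum, and the listed miRNAs moved in both directions, as given below. The 7 pluripotency miRNAs listed were all at 0. Of the red cell list 4 of 5 miRNAs had counts, at 0.0922 to 0.170% of counts in freeze-dried and 0.0758 to 0.120% in not freeze-dried libraries. Of the leukocyte list 3 of 5 had counts, with both miR-142a strands at 0, at 0.0852 to 0.138% and 0.0567 to 0.123%. The 2 liver miRNAs took 0.0199 to 0.0405% and 0.0296 to 0.0639%.

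A miRNA is cut from a hairpin in a longer transcript. One strand or either strand of the hairpin is loaded into an Argonaute protein, and the bases at positions 2 to 8, the seed, pair with the messenger RNAs it represses. A reference miRNA serves only if its level, relative to the other miRNAs, is the same in the samples compared. miR-191-5p and miR-103-3p are familiar references in tissue and body-fluid work. miR-103 and miR-107 lie in introns of pantothenate kinase genes and are known for effects on insulin sensitivity and on Dicer. miR-151 lies in the gene of focal adhesion kinase, and miR-186 in that of the RNA-binding protein Zranb2.

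The mature sequences of 5 of the 7 were found in RefSeq (GRCm38.p6) and are shown because they tell which of the 7 can share reads or targets. Each is written 5′ to 3′ with the seed in capitals.
miR-191-5p: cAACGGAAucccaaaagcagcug
miR-425-5p: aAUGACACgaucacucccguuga
miR-103-3p: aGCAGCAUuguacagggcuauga
miR-107-3p: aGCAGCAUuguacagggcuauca
miR-186-5p: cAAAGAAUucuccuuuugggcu
miR-103-3p and miR-107-3p have the same 23 bases except for the substitution G22C, counted from 1 at the 5′ end with the base of miR-103-3p first. Reads that end before that base cannot be told apart, so the split of counts between them is uncertain. Their seed is the same, and no other of the 1675 miRNAs of the table with a RefSeq sequence had it. The seed of miR-425-5p was shared by miR-489-3p, which had 0 counts in all libraries. miR-151-5p and miR-151-3p are named only.

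In GENCODE M21 (GRCm38), the miR-191 hairpin at chr9:108568319-108568392 and the miR-425 hairpin at chr9:108568777-108568861 lie on the plus strand with 384 bases between them. Both overlap an exon of the long non-coding RNA gene 4833445I07Rik. miR-103-3p comes from 2 hairpins with the same mature sequence, at chr11:35782396-35782481 in an intron of Pank3 and at chr2:131288052-131288137 in an intron of Pank2. The miR-107 hairpin lies at chr19:34820687-34820773 in an intron of Pank1, the miR-151 hairpin at chr15:73254815-73254882 in an intron of Ptk2, and the miR-186 hairpin at chr3:157544279-157544349 in an intron of Zranb2, all on the strand of their host gene.

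Together the 7 miRNAs took a small part of each library. Their share of counts was 1.70, 1.90 and 1.84% in freeze-dried replicates 1, 2 and 3. It was 2.32 and 2.02% in not freeze-dried replicates 1 and 2, with no overlap between the groups. Such a raw share also depends on the reads of all other miRNAs. Of the 327 single miRNAs, 17.4% had groups without overlap in the scaled counts described next. In TMM-normalised CPM (counts per library total times 1000000, adjusted so that most miRNAs keep the same level between libraries), miR-191-5p was the most abundant at a mean of 7852 CPM over the 5 libraries. It was followed by miR-151-3p at 4006, miR-151-5p at 3496, miR-186-5p at 1995, miR-103-3p at 1398, miR-425-5p at 659 and miR-107-3p at 106 CPM. The ranges of the 5 libraries overlapped for the 2 strands of miR-151 alone among neighbours in this order. Counts of different miRNAs also depend on how well each sequence is ligated and amplified, so the order is one of reads.

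**Figure D1:**
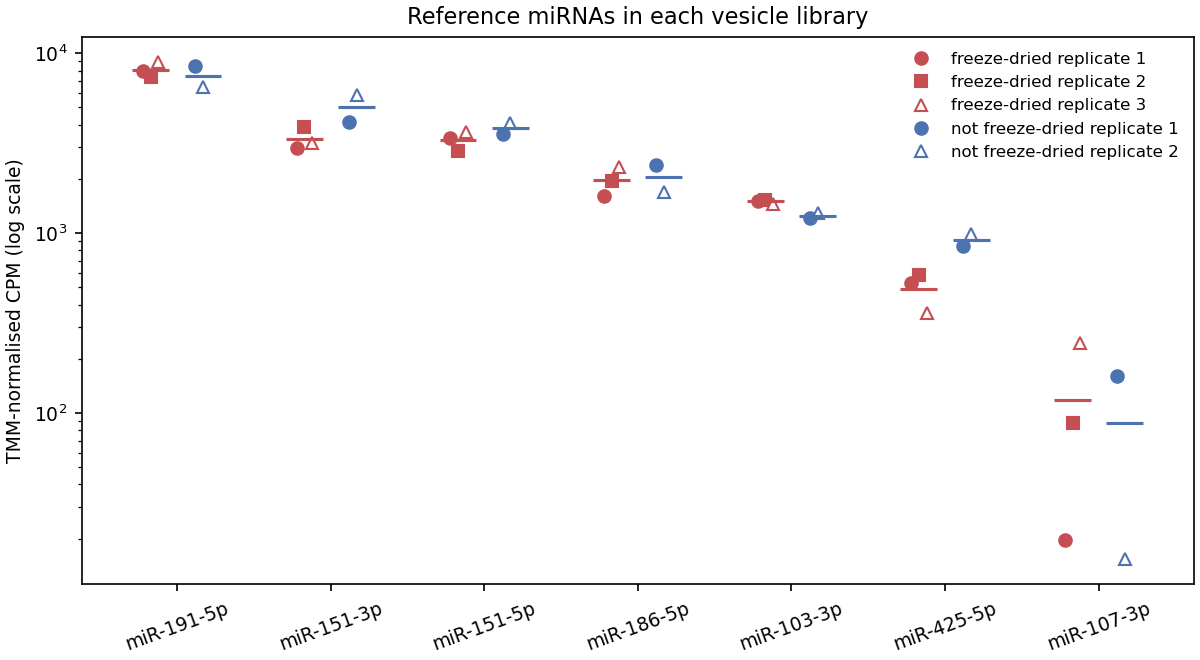
TMM-normalised CPM (log scale) of the 7 reference miRNAs in each library, freeze-dried libraries in red and not freeze-dried ones in blue. Points are libraries, open symbols the shallow ones, and bars group means. miR-103-3p lies in a narrow band, while miR-107-3p spans 15.3 to 245 CPM.

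In the fit of all 5 libraries by group alone no miRNA passed the test between the groups. edgeR's quasi-likelihood test with Benjamini-Hochberg adjustment called 0 of 327 miRNAs higher (0%) and 0 lower (0%) in freeze-dried EVs, so 0 of the 7 were called, each at an adjusted p of 0.976. At an unadjusted p under 0.05 edgeR had 9 of the 327 miRNAs (2.75%) and none of the 7. DESeq2 and limma-voom also called 0 and had 16 each at that unadjusted p. In the 3 deep libraries alone, edgeR called 1 miRNA lower, miR-6239, which is not one of the 7 and is named after its values were seen (adjusted p = 0.0093, with a lone not freeze-dried library). The median log2 fold change, freeze-dried over not freeze-dried, was -0.061 for the 7 and 0.015 for all 327. A p that misses the threshold does not show that a level was the same, so each fold change is given with its 95% interval.

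That interval lay inside 2-fold in both directions for 3 of the 7, miR-191-5p, miR-151-5p and miR-186-5p. The same held for 8.56% of all 327 miRNAs and for 31.5% of the 89 with a mean of at least 1000 CPM, a level that 5 of the 7 reached. The count fell to 2 without freeze-dried replicate 2, to 1 without freeze-dried replicate 1, freeze-dried replicate 3 or not freeze-dried replicate 2, and to 0 without not freeze-dried replicate 1. The CPM ranges of the groups were apart for another 3 of the 7, miR-103-3p (higher in freeze-dried EVs), miR-425-5p and miR-151-3p (both lower). Over all miRNAs this was 17.4%, or 8.87% higher and 8.56% lower, and 24.7% at 1000 CPM or more.

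**Figure D2:**
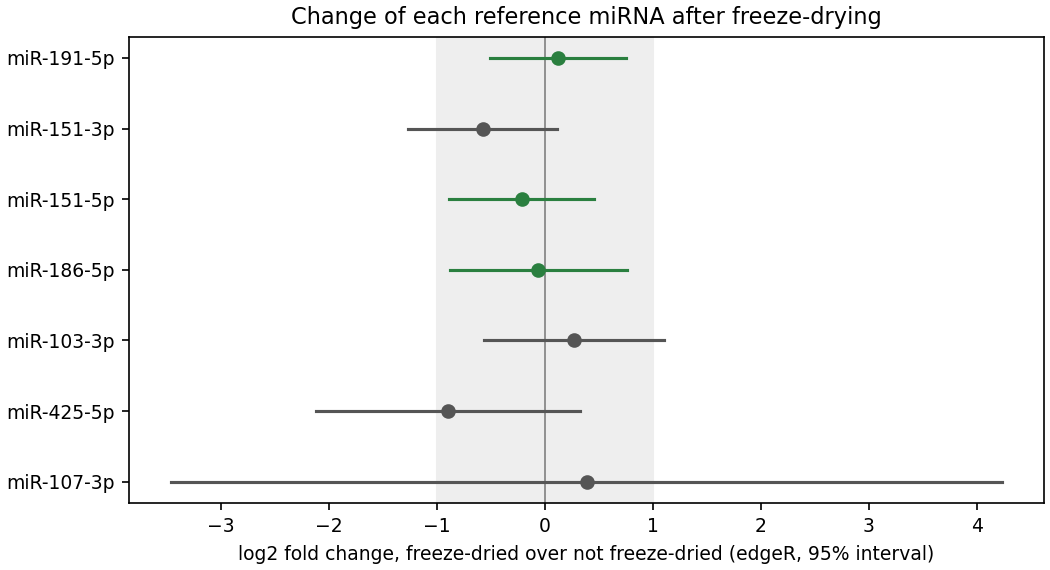
log2 fold change of each reference miRNA, freeze-dried over not freeze-dried, from edgeR with its 95% interval over 3 and 2 libraries. The grey band marks 2-fold in either direction. The 3 intervals inside it are green, and the widest, of miR-107-3p, runs from -3.46 to 4.23.

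miR-191-5p, a common choice for normalising body-fluid samples, had 7993, 7362 and 8968 CPM in freeze-dried replicates 1, 2 and 3, against 8429 and 6508 CPM in not freeze-dried replicates 1 and 2. The highest value and the lowest were both in shallow libraries, and the groups overlapped. The log2 fold change was 0.12 (SE 0.28, 95% interval -0.51 to 0.75). Its sign rested on the scaling and on single libraries, being -0.027 with library totals only and -0.10 without not freeze-dried replicate 2. The highest library stood 1.38-fold above the lowest. The SD of log2 CPM over the 5 libraries was 0.18, against 0.029 expected from counting error, and 0.092 without not freeze-dried replicate 2.

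While the groups overlapped for miR-191-5p, they were apart for miR-425-5p, whose hairpin lies beside that of miR-191. miR-425-5p had 526, 582 and 359 CPM in freeze-dried replicates 1, 2 and 3, against 845 and 981 CPM in not freeze-dried replicates 1 and 2. Every freeze-dried library was below both not freeze-dried ones, also in raw shares of counts, at 0.0327 to 0.0606% against 0.0944 and 0.0973%. The log2 fold change was -0.90 (SE 0.55, 95% interval -2.12 to 0.32), the largest in size of the 7, and it did not pass the test (edgeR adjusted p = 0.976). It stayed below 0 under all 18 alternatives, from -1.04 to -0.63, with adjusted p-values of 0.793 to 0.999. The summed share of the mesenchymal miRNAs was also lower in the freeze-dried libraries (15.3 to 17.5% against 21.7%), and its part in this difference was not tested. The listed miRNAs did not move together. Log2 fold changes were below 0 for miR-143-3p (-0.66), miR-199a-5p (-0.39), miR-22-3p (-0.38) and miR-21a-5p (-0.28). They were above 0 for miR-199a-3p (0.57), miR-214-3p (0.30), miR-145a-5p (0.25) and miR-125b-5p (0.11). In bulk libraries, fewer vesicles that carry a miRNA and less of it in each vesicle cannot be told apart.

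The ratio of the 2 neighbours needs no scaling. There were 15.2, 12.7 and 25.0 counts of miR-191-5p per count of miR-425-5p in freeze-dried replicates 1, 2 and 3, against 9.98 and 6.63 in not freeze-dried replicates 1 and 2. All 3 freeze-dried ratios were above both others, and the highest was that of the shallow freeze-dried library, where miR-425-5p had 63 counts. The mean log2 ratio was 4.08 ± 0.51 in freeze-dried EVs (SD, n = 3) and 3.02 ± 0.42 in not freeze-dried EVs (SD, n = 2), a difference of 1.05. An exact two-sided permutation test gave p = 0.2, the smallest that 3 against 2 libraries allow, and 0.6 after adjustment over the 3 ratios compared. Leaving out a library moved the difference between 0.76, without not freeze-dried replicate 2, and 1.35, without not freeze-dried replicate 1.

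Both hairpins of this locus gave most of their reads from the 5p strand. They are shown with both mature strands in capitals, since the counts of the 3p strands bear on how the hairpins were read.
Mir191: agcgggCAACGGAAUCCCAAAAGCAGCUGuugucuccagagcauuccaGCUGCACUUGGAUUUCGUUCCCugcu
Mir425: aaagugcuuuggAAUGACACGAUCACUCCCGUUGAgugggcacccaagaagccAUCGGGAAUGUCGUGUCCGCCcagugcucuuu
miR-191-3p took 2.26, 0.405 and 0.568% of the reads of its hairpin in freeze-dried replicates 1, 2 and 3, against 0.255 and 1.39% in not freeze-dried replicates 1 and 2. The share of freeze-dried replicate 1, from 507 counts (exact binomial 95% interval 2.07 to 2.46%), lay well above that of freeze-dried replicate 2, from 77 counts (0.319 to 0.506%), though both libraries were deep. miR-425-3p had 99, 178 and 0 counts in freeze-dried replicates 1, 2 and 3, against 0 and 4 in not freeze-dried replicates 1 and 2. In not freeze-dried replicate 1, with 861 counts of miR-425-5p, a count of 0 allows a 3p share of up to 0.348% by a floor of 3 counts (0.428% by the exact binomial interval). Freeze-dried replicate 3 had 63 counts of the hairpin, where 0 allows up to 4.76% by that floor (5.69% by the exact interval). Freeze-dried replicates 1 and 2 had 6.41 and 10.6%. Not freeze-dried replicate 2 had 3.03%, from 4 of 132 counts (exact binomial 95% interval 0.832 to 7.58%). That interval overlapped the one of freeze-dried replicate 1 (5.24 to 7.75%) but not that of freeze-dried replicate 2 (9.19 to 12.2%). These intervals and limits cover counting error only.

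miR-103-3p was the most even of the 7. It had 1512, 1527 and 1458 CPM in freeze-dried replicates 1, 2 and 3, against 1204 and 1288 CPM in not freeze-dried replicates 1 and 2. The values within each group were close, and the freeze-dried ones were all higher. In raw shares of counts the groups overlapped, at 0.133 to 0.159% in freeze-dried EVs against 0.135 and 0.128%. The log2 fold change was 0.27 (SE 0.37, 95% interval -0.57 to 1.10) and was above 0 under all 18 alternatives, from 0.14 to 0.38. The SD of log2 CPM was 0.15 over the 5 libraries, against 0.068 expected from counting error. Within groups it was 0.049, which is below that counting error, so libraries of a group were closer than the counts can resolve. The SD over the libraries ranged from 0.11 to 0.24 over other scalings and with a library left out, the highest under upper-quartile scaling.

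miR-107-3p, which shares its seed with miR-103-3p, was the least even. It had 19.7, 87.8 and 245 CPM in freeze-dried replicates 1, 2 and 3, against 160 and 15.3 CPM in not freeze-dried replicates 1 and 2. The raw counts behind these were 54, 226 and 43, against 163 and 2. High and low libraries occurred in both groups and at both depths. The log2 fold change was 0.38 (SE 1.72, 95% interval -3.46 to 4.23), and it turned to -0.72 without freeze-dried replicate 3 and -0.53 without not freeze-dried replicate 2, and reached 2.99 without not freeze-dried replicate 1. The SD of log2 CPM was 1.78, against 0.48 expected from counting error. The highest library stood 15.6-fold above the lowest.

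Of all reads given to miR-103-3p or miR-107-3p, miR-107-3p took 1.28, 5.44 and 14.4% in freeze-dried replicates 1, 2 and 3, against 11.7 and 1.18% in not freeze-dried replicates 1 and 2. The exact binomial 95% intervals of the deep libraries, which cover counting error only, did not overlap. They ran from 0.965 to 1.67% and from 4.77 to 6.17% in freeze-dried replicates 1 and 2, and from 10.1 to 13.5% in not freeze-dried replicate 1. The mean log2 ratio of miR-103-3p over miR-107-3p was 4.32 ± 1.85 in freeze-dried EVs (SD, n = 3) and 4.65 ± 2.46 in not freeze-dried EVs (SD, n = 2). The exact permutation test, two-sided, gave p = 0.8 (adjusted 0.8). The difference of -0.33 turned to 1.41 without not freeze-dried replicate 2 and to 0.54 without freeze-dried replicate 3, and reached -2.07 without not freeze-dried replicate 1. The 5p strands miR-103-1-5p, miR-103-2-5p and miR-107-5p had 0 counts in every library, which in the deepest allows up to 0.000103% of counts each.

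The miR-151 hairpin, within the focal adhesion kinase gene, gave reads from both strands. miR-151-5p, which in human liver cancer is known to promote cell migration, had 3372, 2857 and 3621 CPM in freeze-dried replicates 1, 2 and 3, against 3543 and 4086 CPM in not freeze-dried replicates 1 and 2. The groups overlapped, though in raw shares of counts the freeze-dried libraries were all lower, at 0.297 to 0.330% against 0.396 and 0.405%. On the log2 scale the fold change was -0.22 (SE 0.30, 95% interval -0.89 to 0.45). The SD of log2 CPM was 0.19, and 0.072 without freeze-dried replicate 2.

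miR-151-3p had 2987, 3887 and 3166 CPM in freeze-dried replicates 1, 2 and 3, against 4164 and 5826 CPM in not freeze-dried replicates 1 and 2. Every freeze-dried library was below both not freeze-dried ones, and the highest value was in the shallow not freeze-dried library. The log2 fold change was -0.58 (SE 0.31, 95% interval -1.27 to 0.11; edgeR adjusted p = 0.976). It stayed below 0 under all 18 alternatives, and was -0.36 without not freeze-dried replicate 2 and -0.29 in the 3 deep libraries, where the lone not freeze-dried library is taken to vary like the rest. The lower summed mesenchymal share given above, whose miRNAs moved in both directions, goes with this difference too, and its part was not tested.

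miR-151-3p made up 47.0, 57.6 and 46.6% of the reads of both strands in freeze-dried replicates 1, 2 and 3, against 54.0 and 58.8% in not freeze-dried replicates 1 and 2. The 3p strand was the more abundant one in freeze-dried replicate 2 and both not freeze-dried libraries, and the 5p strand in the other 2. The mean log2 ratio of 3p over 5p was 0.025 ± 0.36 in freeze-dried EVs (SD, n = 3) and 0.37 ± 0.20 in not freeze-dried EVs (SD, n = 2). For this difference of -0.35 the exact permutation test, two-sided, gave p = 0.4 (adjusted 0.6), where 3 against 2 libraries allow none below 0.2. That does not show that the ratios were the same. The difference was -0.56 without freeze-dried replicate 2 and -0.21 without not freeze-dried replicate 2.

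**Figure D3:**
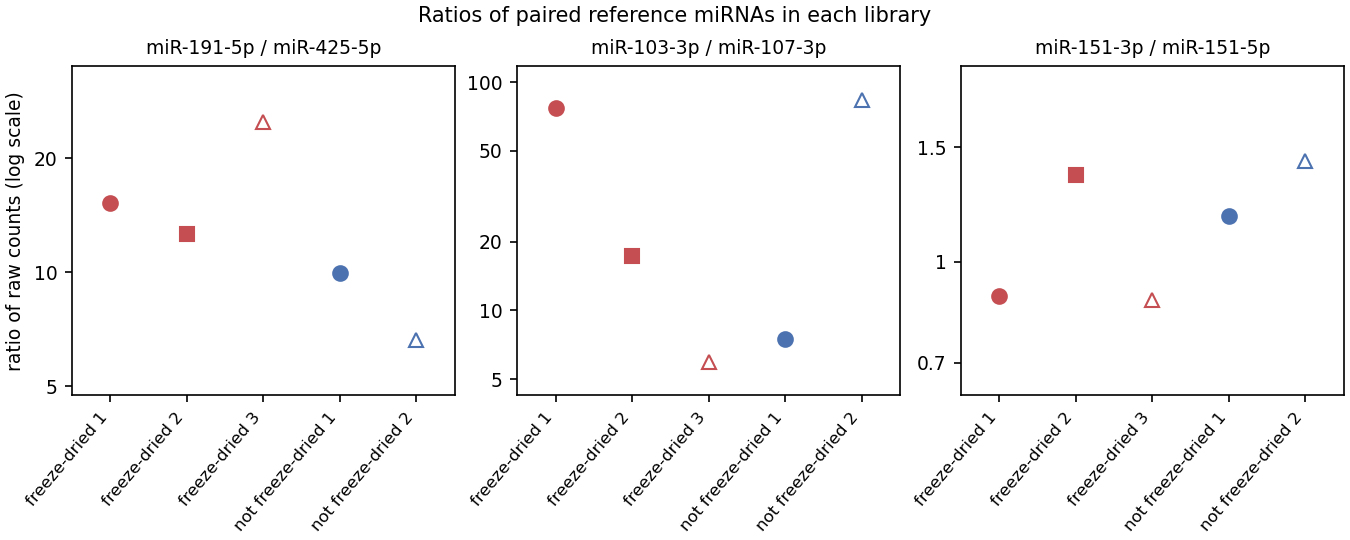
Ratios of raw counts (log scale, a separate range in each panel) of miR-191-5p over miR-425-5p, miR-103-3p over miR-107-3p and miR-151-3p over miR-151-5p in each library. Freeze-dried libraries are red and not freeze-dried ones blue, with the shallow libraries open. The groups are apart in the first panel alone, at 12.7 to 25.0 in freeze-dried against 6.63 and 9.98 in not freeze-dried libraries.

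miR-186-5p had 1597, 1951 and 2340 CPM in freeze-dried replicates 1, 2 and 3, against 2396 and 1694 CPM in not freeze-dried replicates 1 and 2. The groups covered nearly the same range. The fitted log2 fold change was -0.061 (SE 0.37, 95% interval -0.88 to 0.76), with a sign that turned to 0.28 without not freeze-dried replicate 1 and to 0.080 without freeze-dried replicate 1, and that was -0.34 without not freeze-dried replicate 2. The SD of log2 CPM was 0.26, against 0.057 from counting error. Its other strand, miR-186-3p, had 0 counts in every library.

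Among the 89 miRNAs of 1000 CPM or more, ordered by the SD of log2 CPM over the 5 libraries, miR-103-3p was 2nd, miR-191-5p 6th, miR-151-5p 7th, miR-186-5p 20th and miR-151-3p 41st. The median SD was 0.19 for these 5 and 0.39 for the 89. miR-425-5p, at 0.58, and miR-107-3p, at 1.78, lay below 1000 CPM and were not ranked. The median SD of all 327 miRNAs, the 89 included, was 1.37. The geNorm measure M, the mean SD of a miRNA's log2 ratios to the other miRNAs of a set, hardly depends on the scale. Over the same 89 it was 0.59 for miR-103-3p, the lowest, 0.62 for miR-191-5p (9th) and 0.63 for miR-151-5p (13th). It was 0.67 for miR-186-5p (34th) and 0.72 for miR-151-3p (46th). Within the 7, the steadiest ratio was that of miR-191-5p and miR-186-5p, with an SD of 0.195 on the log2 scale, and the least steady that of miR-425-5p and miR-107-3p, at 2.11. These are descriptions of 5 libraries.

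**Figure D4:**
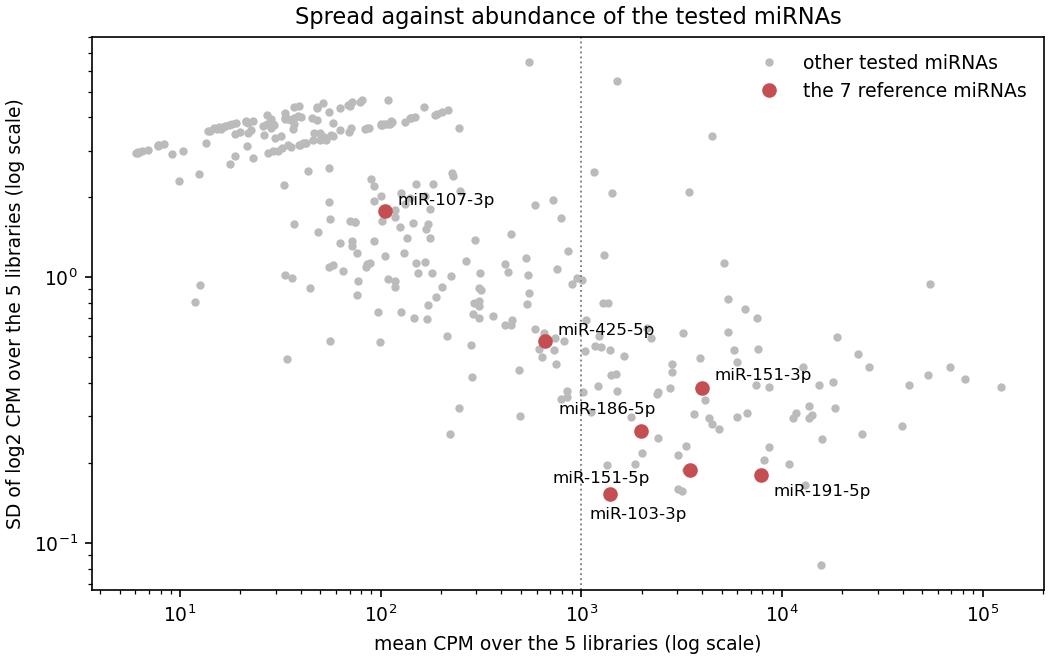
SD of log2 CPM over the 5 libraries against mean CPM (both log scales) for the 327 tested miRNAs, with the 7 reference miRNAs in red. The dotted line marks 1000 CPM. miR-103-3p, miR-191-5p and miR-151-5p lie along the lower edge at 0.15 to 0.19, while miR-107-3p lies at 1.78.

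The miRNA with the smallest spread of the 89 was miR-221-3p, a miRNA of mesenchymal and vascular cells, with an SD of 0.083. It had 14856, 14847 and 16444 CPM in freeze-dried replicates 1, 2 and 3, against 16813 and 15561 CPM in not freeze-dried replicates 1 and 2. After miR-103-3p came miR-28a-3p (SD 0.16), miR-125b-1-3p (0.16) and miR-25-3p (0.17). miR-221-3p was also the one whose log2 CPM kept most closely to the mean of the 7, with an SD of the difference of 0.20 over the 5 libraries. The next by that measure were miR-423-3p (0.23), miR-125b-1-3p (0.24), miR-206-3p (0.26) and miR-30e-5p (0.30). This order rested on miR-107-3p. Against the mean of the 6 without it, a choice made after its values were seen, miR-221-3p was still the closest (0.115), followed by miR-93-5p (0.13), miR-99b-5p (0.15), miR-125b-1-3p (0.17) and miR-28a-3p (0.18).

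Other miRNAs that are used or proposed as references were read beside the 7, from a list of 30. By name, 29 were matched in the table, and 28 were tested. The listed miR-28-5p found no match under that name. The table has miR-28a-5p (log2 fold change -0.32, groups overlapping), which the counts below leave out. Of the 28, none was called higher and none lower (0 of 28 each, edgeR). Fold changes were above 1 for 18 of the 28 and under 1 for 10, and the median of the 28 on the log2 scale was 0.14. The 95% interval lay inside 2-fold for 10 of them, all among the 21 at 1000 CPM or more (8.56% of the 327 miRNAs and 31.5% of the 89). The CPM ranges of the groups were apart for 10 of these 28, against 17.4% of the 327 and 24.7% of the 89. The median SD of log2 CPM of the 21 was 0.32, and it ran from 0.083 for miR-221-3p to 0.94 for miR-92a-3p of the miR-17-92 cluster. The 4 most abundant were miR-92a-3p, whose highest library stood 4.02-fold above its lowest, let-7a-5p (1.88-fold), the cartilage miRNA miR-140-3p (2.77-fold) and miR-23a-3p (1.72-fold).

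When the libraries were scaled to the 7 miRNAs in place of TMM, edgeR called 0 miRNAs higher and 0 lower of 327, with 6 at an unadjusted p under 0.05. The median over all tested miRNAs of the log2 fold change, 0.015 with TMM, became 0.15. Scaled to a single one of the 7, it ranged from -0.56 with miR-107-3p to 0.998 with miR-425-5p. It was -0.11 with miR-191-5p, 0.082 with miR-186-5p, -0.25 with miR-103-3p, 0.25 with miR-151-5p and 0.61 with miR-151-3p. Such a scale holds the chosen miRNA level between libraries. Each of these medians therefore largely restates that miRNA's own fold change with the sign turned, and is no separate result. The TMM median lies near 0 by design. With miR-425-5p as the scale 84.4% of all miRNAs had a fold change above 1 and 50 had an unadjusted p under 0.05, against 51.1% and 9 with TMM. With miR-191-5p these were 46.8% and 5. Scaling to each of the 7 in turn called 0 miRNAs. Without miR-107-3p, a choice made after its values were seen, the other 6 gave a median of 0.24 and also 0 calls.

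**Figure D5:**
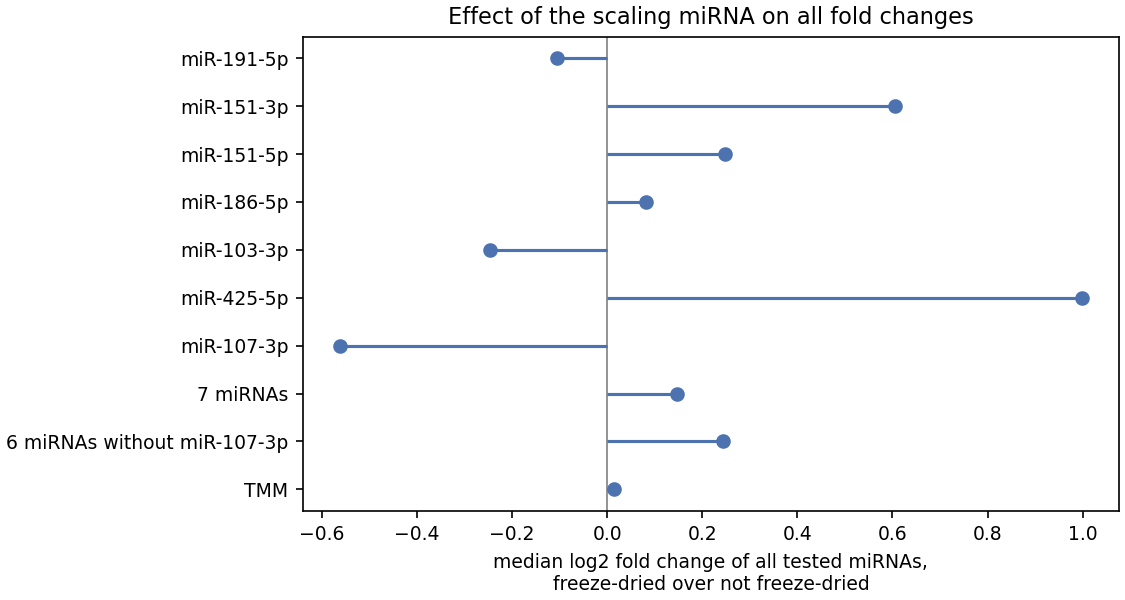
Median log2 fold change of the 327 tested miRNAs, freeze-dried over not freeze-dried, when the libraries are scaled to each reference miRNA, to all 7, to the 6 without miR-107-3p, or by TMM. Lines run from 0. The median runs from -0.56 (miR-107-3p) to 0.998 (miR-425-5p). With a single miRNA as the scale it largely restates that miRNA's own fold change with the sign turned.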

How the data were processed

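The authors deposited raw read counts per mature miRNA. The tools in the submitters' processing notes are featureCounts 1.5.0-p1, Bowtie 1.1.2, cutadapt 2.3, FastQC and bcl2fastq 2.20, and the build is GRCm38, with no role or order. Annotation release, strand use and the treatment of duplicates or of reads with several matches were not given in the sources used here, so reads of miR-103-3p, with 2 hairpins, may have been split or lost. Libraries were grouped by title. Counts were fitted over all miRNAs in R 4.3.3 with edgeR 4.0.16 (robust quasi-likelihood F test, TMM scaling, filterByExpr), with Benjamini-Hochberg adjustment over the 327 tested and a threshold of 0.05. The SE is the size of the log2 fold change divided by the square root of F. Spread was the SD of log2 CPM with a prior count of 0.5. Exact permutation tests used raw ratios. The members, the lists and the rule for other names (list members highest in CPM, and the 5 smallest SDs) were chosen with earlier results of these data known. Alternatives were other scalings and filters, DESeq2 1.42.0, limma-voom 3.58.1, thinning to equal depth, leaving out miRBase entries numbered 1000 or above, leaving out each library, a replicate block, a depth term and the deep libraries by themselves. The functions were tested on simulated data. Figures were drawn with matplotlib 3.10.9.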

Additional observations from a re-analysis of the deposited data

How the results depend on the processing

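With each of the 18 alternatives 0 miRNAs were called higher. The 0 called lower became 4 with the replicate block and 1 in the 3 deep libraries alone, none of them a reference miRNA, and was 0 with each library left out in turn. Of the 7, 3 had intervals inside 2-fold, a count that was 1 with upper-quartile scaling, with library totals only, with the replicate block and in the deep libraries, 0 with the scale of the 7, and 0 to 2 with a library left out. In the other alternatives there were 2 to 4. The causes were not tested. Leaving out a library both used fewer samples and moved the estimates, as given below. The fold changes of miR-425-5p, miR-151-3p, miR-151-5p and miR-103-3p kept their sign under all 18.

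The log2 fold change of miR-191-5p was -0.0023 with upper-quartile scaling, -0.027 with library totals and -0.16 in the deep libraries, and -0.10 to 0.38 with a library left out. That of miR-107-3p was -0.0089 with upper-quartile scaling, -1.22 with limma-voom, -0.40 with the replicate block and -1.58 in the deep libraries, and -0.72 to 2.99 with a library left out. It could not be fitted with a filter of 10 counts in every library. That of miR-186-5p was 0.056 with the scale of the 7, and -0.34 to 0.28 with a library left out. The log2 ratio of miR-103-3p over miR-107-3p differed by -2.07 to 1.41 with a library left out. The replicate numbers make only 2 pairs, whose deviations correlated at 0.13 and -0.098, and the 2 not freeze-dried libraries deviate as exact opposites (-1), so these values cannot show whether libraries were paired. Of the 7, counting error was largest for miR-107-3p and miR-425-5p, whose lowest counts in a library were 2 and 63. Counting error alone gives an SD of log2 CPM of 0.48 and 0.10 for them, against 1.78 and 0.58 over the 5 libraries.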

Other observations

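miR-16-5p, another common reference and a member of the list read beside the 7, carries at bases 2 to 8 the letters AGCAGCA, which are bases 1 to 7 of miR-103-3p. Its log2 fold change, freeze-dried over not freeze-dried, was -0.58 (SE 0.29, 95% interval -1.23 to 0.074, edgeR adjusted p = 0.976). The groups were apart, as for 10 of the 28 tested list members and 24.7% of the 89 miRNAs of 1000 CPM or more. The log2 fold change of miR-103-3p was 0.27 (95% interval -0.57 to 1.10), and the intervals of these miRNAs overlapped. The difference between these fold changes was not tested.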
